A study of Ovis aries with 23 samples.

Results

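GPR84, a G protein-coupled receptor, was followed in lung tissue of 23 sheep as 1 of the 14 mRNA markers and 1 of the 20 features in the deposited table. It was the fourth feature of that table and took its name from the fourth place of the study's probe table, since the deposited values carry only tag identifiers (T004 here). The gene was chosen by its own difference between the phenotypes, over all animals, at each time point and in each study. These differences are therefore given as a description, without a test. Tests were kept for time and study within a phenotype, the interactions, and the relation to the other 13 markers. The interactions compare the same differences that entered the choice, so they are not independent of it. A small interaction is therefore no separate evidence that the difference was even over time or study.

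The animals were non-pregnant Merino-Dorset crossbreed ewes of 1 to 3 years, and all were anesthetized, mechanically ventilated and injured with intravenous oleic acid (OA). The 14 animals of Ph1 received OA alone, and the 9 animals of Ph2 received OA followed by intravenous lipopolysaccharide (LPS), a component of the outer membrane of gram-negative bacteria. Tissue was taken at the end of observation, after 6 h from 5 Ph1 and 3 Ph2 animals, after 12 h from 4 and 3, and after 24 h from 5 and 3. According to the methods, RNA from 3 lobes of the right lung was pooled for each animal. The study set a threshold of RNA integrity, and its list places the right upper lobes of SD4 and C19 below it. Whether these lobes entered the pools is not stated. The study labelled CELTIC contributed 12 animals, all taken at 6 or 12 h, and the study labelled STARDUST 11, among them every animal taken at 24 h, so that the latest time point cannot be told apart from study. No group without injury was included. Ph1 and Ph2 stand for the hypoinflammatory and hyperinflammatory subphenotypes of human acute respiratory distress syndrome, and the markers were taken from blood leukocytes of patients. The assay held no defining marker of lung epithelium or endothelium, so the tissue label was not checked. Each sheep was 1 sample, and the groups shared no animals.

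GPR84 is a receptor for medium-chain fatty acids that signals through inhibitory G proteins. It is carried mainly by neutrophils, monocytes and macrophages, where its mRNA is known to increase after exposure to LPS, and its activation is known to promote migration of these cells and release of cytokines. OA is a long-chain fatty acid, and all 23 animals had received it.

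The nCounter assay counts mRNA molecules directly, without amplification, through a pair of DNA probes that hybridize side by side to the transcript. The probe pair is shown because every GPR84 value rests on this short stretch of the transcript alone. In the sequences of the probe pair, written 5′ to 3′, capitals mark the 50 bases of each probe that match GPR84, and lower case marks the parts that bind the reporter or capture tag.
GPR84 probe A: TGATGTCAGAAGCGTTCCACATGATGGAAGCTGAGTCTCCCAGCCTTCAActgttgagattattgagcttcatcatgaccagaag
GPR84 probe B: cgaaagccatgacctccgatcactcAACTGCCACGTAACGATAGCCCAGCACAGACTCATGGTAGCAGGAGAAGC
The first 25 bases of probe B were the same in all 22 probe pairs of the assay. The reverse complements of the capitals of probes A and B, joined in this order, gave a target of 100 bases with a GC content of 52%. In this target 28 bases preceded an ATG, and the reading frame from it ran for 24 codons to the end of the target without a stop codon. In the RefSeq annotation of the sheep assembly ARS-UI_Ramb_v3.0, GPR84 is a protein-coding gene with ZNF385A and COPZ1 as its protein-coding neighbours. The deposited values name no assembly, and no coordinates are given here.

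The values are log2 normalized counts, on which a difference of 1 is a doubling. Unlogged, the values of an animal were whole numbers multiplied by a single factor, and these whole numbers are taken as recovered counts. The recovered count of GPR84 lay between 57 and 1705 (median 197.5 for Ph1 and 549 for Ph2), out of 13871 to 34415 counts over the 20 features. It exceeded the higher of T007 and T011, the features at the places of the genes the study left out for low counts, by at least 4.44 times in every animal. The exact 95% Poisson interval of the count, which covers counting error only, spanned between 0.14 and 0.77 log2 units per animal, with a median of 0.39. Differences between animals of the same group were wider. The SD within the 6 groups of phenotype and time point was 1.17, second among the 14 markers only to OLFM4 with 1.52. Over all animals GPR84 ranged from 5.63 to 10.52, a span of 4.89 log2 units. In bulk tissue, fewer cells that carry the receptor and less GPR84 mRNA in each such cell cannot be told apart.

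**Figure D1:**
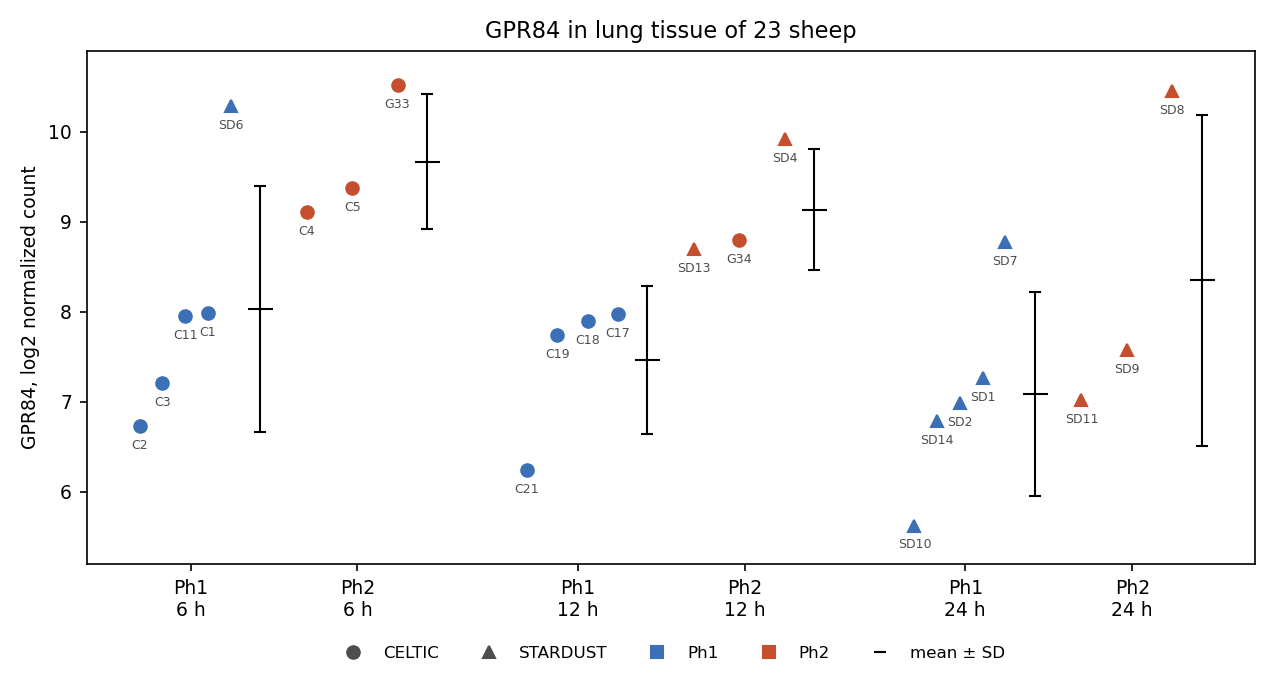
GPR84 in each of 23 sheep as log2 normalized count (y axis), by phenotype and observation time (x axis), with circles for CELTIC, triangles for STARDUST, and black bars for mean and SD. Ph1 lies between 5.63 and 10.28 and Ph2 between 7.02 and 10.52, and the groups are separate at 12 h but overlap at 6 and 24 h.

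Over all time points GPR84 was higher in Ph2. The lowest, median and highest values were 5.63, 7.50 and 10.28 in Ph1 and 7.02, 9.11 and 10.52 in Ph2. The means of 7.53 ± 1.14 (SD, n = 14) and 9.05 ± 1.20 (SD, n = 9) differed by 1.52, which is a 2.86-fold higher geometric mean in Ph2. A Ph2 animal had the higher value in 104 of the 126 pairs of a Ph2 and a Ph1 animal. Of the 9 highest animals 7 belonged to Ph2, and the 5 lowest were all Ph1. The 4 highest, G33 at 10.52, SD8 at 10.45, SD6 at 10.28 and SD4 at 9.92, came from all 3 time points and both studies, and SD6 was the Ph1 animal among them. In the order of the 6 group means, Ph2 at 6 h stood first, followed by Ph2 at 12 h, Ph2 at 24 h, Ph1 at 6 h, Ph1 at 12 h and Ph1 at 24 h. Each neighbour in this order differed by 0.32 to 0.79, which was less than the pooled SD of the groups compared (0.71 to 1.54).

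After 6 h, the Ph2 animals C4, C5 and G33 had GPR84 at 9.11, 9.38 and 10.52. The Ph1 animals C2, C3, C11 and C1 lay at 6.73, 7.21, 7.95 and 7.99, and SD6 lay at 10.28, above C4 and C5. SD6 was the sole STARDUST animal at this time point, so that animal and study cannot be told apart there. The means were 9.67 ± 0.75 (SD, n = 3) and 8.03 ± 1.37 (SD, n = 5), a difference of 1.63. Without SD6 the difference was 2.20, and each Ph2 animal lay above all 4 remaining Ph1 animals, which like the Ph2 animals were from CELTIC. Over all animals at 6 h none of the 14 markers separated the phenotypes without overlap (0%), and among the CELTIC animals of this time point 2 did (14.3%), GPR84 and ADGRE3.

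After 12 h, the Ph1 animals C21, C19, C18 and C17 had GPR84 at 6.25, 7.74, 7.90 and 7.98, and the Ph2 animals SD13, G34 and SD4 at 8.70, 8.79 and 9.92. The groups did not overlap, and the lowest Ph2 animal stood above the highest Ph1 animal. The means of 7.47 ± 0.82 (SD, n = 4) and 9.14 ± 0.68 (SD, n = 3) differed by 1.67 and the medians by 0.97. Since 6 of the 14 markers (42.9%) were separate at 12 h, separation at this time point was common among the markers: OLFM4, LCN2 and TCN1, which like GPR84 were higher in Ph2, and ADGRE3 and SULF2, which were lower, did not overlap either. All Ph1 animals at 12 h were from CELTIC. The Ph2 animal of the same study, G34, lay 1.33 above their mean.

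After 24 h, the Ph1 animals SD10, SD14, SD2, SD1 and SD7 had GPR84 at 5.63, 6.79, 6.99, 7.26 and 8.77, and the Ph2 animals SD11, SD9 and SD8 at 7.02, 7.57 and 10.45. The groups overlapped, with SD7 above SD11 and SD9. The means were 7.09 ± 1.13 (SD, n = 5) and 8.35 ± 1.84 (SD, n = 3), and their difference of 1.26 was 0.21 without SD8 and 1.92 without SD11. The medians differed by 0.59. At 24 h 0% of the 14 markers were separate between the phenotypes.

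By study, GPR84 was separate between the phenotypes in CELTIC, as the 1 marker of 14 (7.14%), but not in STARDUST, where 0% of the markers were. In CELTIC, the 8 Ph1 animals lay between 6.25 and 7.99 and the 4 Ph2 animals between 8.79 and 10.52, with a difference of means of 1.98. In STARDUST, the 6 Ph1 animals spanned 5.63 to 10.28 and the 5 Ph2 animals 7.02 to 10.45, with a difference of 1.11. The SD of Ph1 was 0.67 in CELTIC and 1.65 in STARDUST, and that of Ph2 was 0.75 and 1.47.

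**Figure D2:**
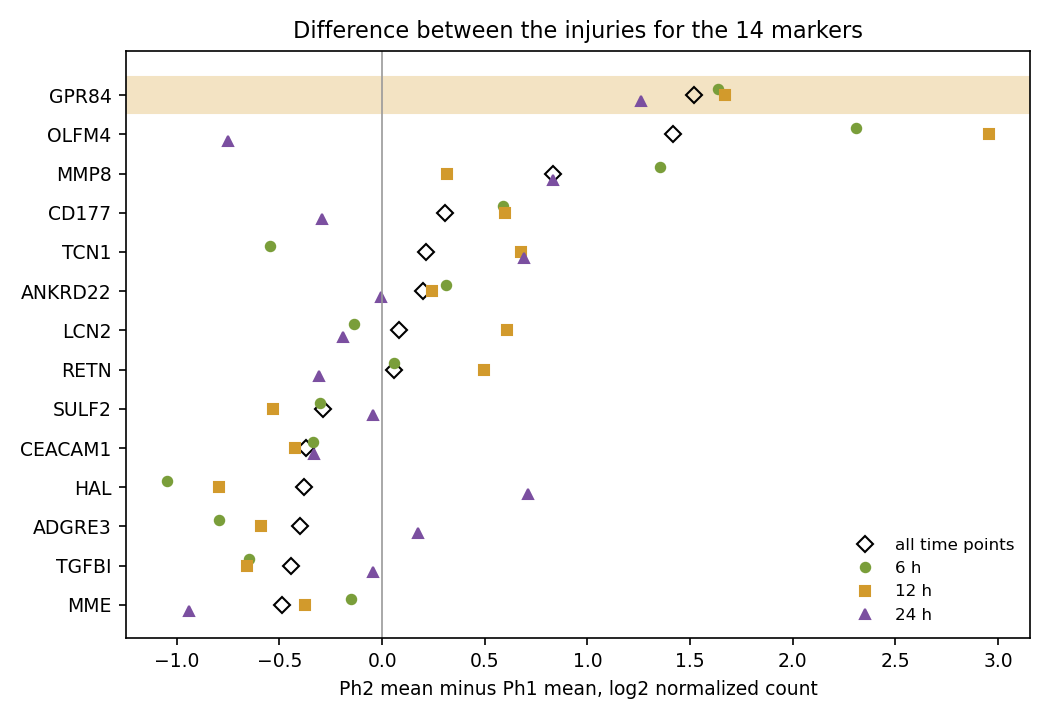
Difference of means between Ph2 and Ph1 (x axis, log2 normalized count, above 0 when higher in Ph2) for each of the 14 markers (y axis), over all animals (diamonds) and at 6, 12 and 24 h. The differences of GPR84 (shaded) lie between 1.26 and 1.67 at the 3 time points, while those of OLFM4 run from -0.75 to 2.96.

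Beside the other markers, the GPR84 difference was first in size of 14 over all time points and at 24 h, and second to OLFM4 at 6 and 12 h. Over all time points OLFM4 followed with 1.42. At 24 h the first place rested on single animals, and GPR84 was in place 11 without SD8, in place 4 without SD10 and in place 2 without SD9. OLFM4 encodes a glycoprotein of the specific granules of a subset of neutrophils, and its differences were 2.31, 2.96 and -0.75 at 6, 12 and 24 h. The study picked all of these markers for their direction in human leukocytes, so a shared direction is no independent evidence. Of the 6 markers of neutrophil granules and the neutrophil surface (MMP8, OLFM4, LCN2, TCN1, CD177 and CEACAM1), 5 had a higher mean in Ph2 over all animals, with a median difference of 0.26, against 7 of all 13 other markers and a median of 0.06. At 6 h 3 of the 6 had a higher mean in Ph2, with a median of 0.23, against 5 of 13 and -0.15. At 12 h 5 of the 6 had a higher mean, with a median of 0.60, against 7 of 13 and 0.24. At 24 h 2 of the 6 had a higher mean, with a median of -0.24, against 4 of 13 and -0.05, while the GPR84 difference was 1.26, or 0.21 without SD8. The summed normalized count of the 6 lay between 4670 and 12815 in Ph1 (median 6943) and between 4658 and 12221 in Ph2 (median 7566), and no marker among them was at 0. LCN2, TCN1 and CEACAM1, with log2 medians of 11.65, 10.77 and 10.37, weighed most in this sum. OLFM4, MMP8 and CD177, with 5.52, 4.47 and 4.42, added little to it in most animals. The sum was not taken as a measure of neutrophil number. Recovered counts of the 6 went down to 4 in Ph1 and 6 in Ph2, so low values of OLFM4, MMP8 and CD177 rest on few counts. This holds for the differences and relations of these markers too. The part of the 6 markers in the GPR84 difference was not tested. Both genes of the myeloid activation list, RETN (resistin) and ANKRD22, had a higher mean in Ph2 at 6 and 12 h and a lower one at 24 h, by at most 0.50 either way. Over all animals, the 3 genes listed for mature myeloid cells (MME, a membrane metalloprotease, HAL, histidine ammonia-lyase, and ADGRE3, an adhesion G protein-coupled receptor) had a lower mean in Ph2, with a median difference of -0.40, while at 24 h 2 of the 3, HAL by 0.71 and ADGRE3 by 0.17, had a higher one. TGFBI and SULF2, of the extracellular matrix, also had a lower mean over all animals, with differences of -0.44 and -0.29, and their differences at 24 h were both -0.05.

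GPR84 did not pass the test for a change over time in either phenotype. In Ph1 its means at 6, 12 and 24 h were 8.03, 7.47 and 7.09, and the values of the 3 time points overlapped (exact permutation Kruskal-Wallis test, p = 0.572, adjusted p = 0.667 over the 14 markers). With the same test, 2 of the 14 markers (14.3%) were called in Ph1, MME and TCN1. In CELTIC alone, the 4 Ph1 animals of 6 h and the 4 of 12 h had the same mean of 7.47, with SDs of 0.61 and 0.82 (exact permutation p = 0.886). In Ph2 the means were 9.67, 9.14 and 8.35, and SD8 at 24 h stood above every animal of 12 h (exact permutation Kruskal-Wallis test, p = 0.439, adjusted p = 0.715). None of the 14 markers (0%) was called over time in Ph2 by this test and 1, OLFM4, had an unadjusted p below 0.05. With 3 animals at each of 3 time points the smallest p this test allows is 0.00357.

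Whether the difference between the phenotypes changed with time was addressed by the interaction in limma. From 6 h to 12 h the GPR84 difference changed by 0.04 ± 1.15 (SE) and from 6 h to 24 h by -0.37 ± 1.12 (SE), and the joint moderated F test of limma gave an adjusted p of 0.963. The standard errors were large beside the difference itself, so a change with time of 1 log2 unit was not detectable with these animals. Of the 14 markers 0% were called for this interaction in limma, and 1, OLFM4, had an unadjusted p below 0.05.

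Study was compared within each phenotype. In Ph1, the mean of GPR84 was 7.47 ± 0.67 among 8 CELTIC and 7.62 ± 1.65 among 6 STARDUST animals (SD), which is 0.15 higher in STARDUST (p = 0.950 by an exact Mann-Whitney U test, two-sided, 1 after adjustment). The sign of this difference rested on single animals, with -0.38 without SD6, -0.08 without SD7 and -0.02 without C21. One of the 14 markers (7.14%) was called between studies in Ph1, MME. In Ph2, it was 9.45 ± 0.75 among 4 CELTIC and 8.73 ± 1.47 among 5 STARDUST animals (SD), a change of -0.72 from CELTIC to STARDUST (p = 0.413 by the exact test, 0.963 after adjustment). By the same exact test 0% of the markers were called between studies in Ph2 and 1, OLFM4, had an unadjusted p below 0.05. The interaction between phenotype and study, fitted in limma, was -0.87 ± 0.97 (SE) for GPR84, with an adjusted p of 0.665, and 0% of the markers were called, with OLFM4 again the marker with an unadjusted p below 0.05. When the 24 h animals were left out, the interaction was -2.96 (adjusted p = 0.0767 in limma), and SD6 was then the sole Ph1 animal of STARDUST.

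**Figure D3:**
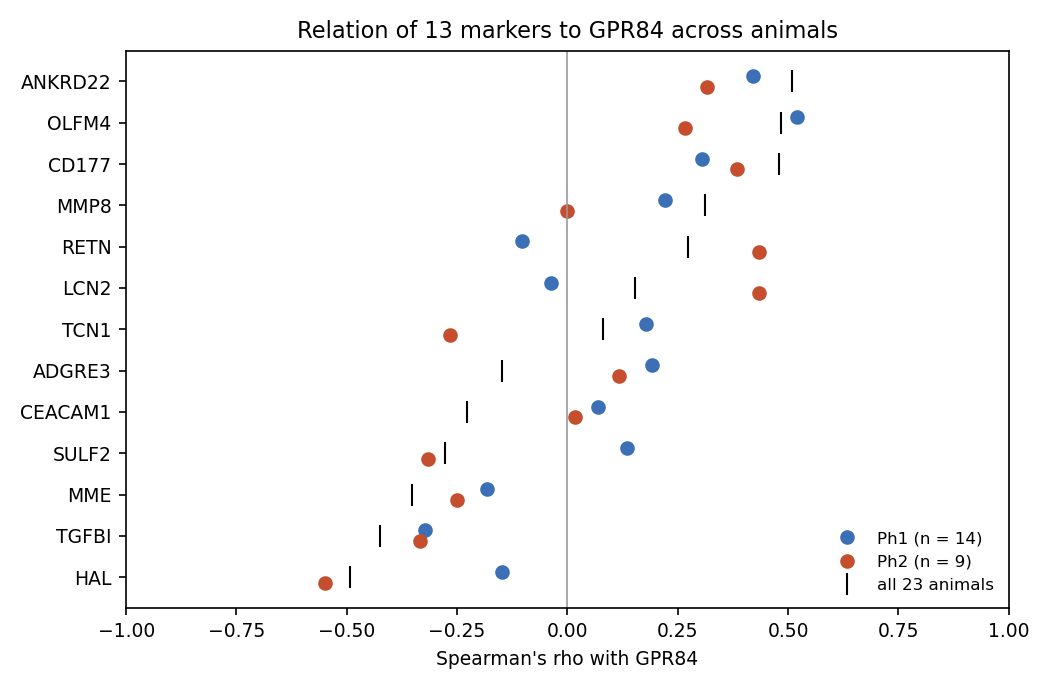
Spearman's rho between GPR84 and each of the 13 other markers (y axis, ordered by the value over all 23 animals) on the x axis, within Ph1 (blue, n = 14), within Ph2 (red, n = 9) and over all animals (black ticks). Within Ph1 rho runs from -0.32 to 0.52 and within Ph2 from -0.55 to 0.43.

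Over all 23 animals, the markers whose pattern was most like that of GPR84 were ANKRD22, a membrane protein with ankyrin repeats, with a Spearman's rho of 0.51, OLFM4 with 0.48, CD177, a glycoprotein of the neutrophil surface, with 0.48, and MMP8, neutrophil collagenase, with 0.31. The least alike were HAL with -0.49 and TGFBI with -0.43. These values describe the likeness across the whole series and carry no test, since both phenotypes are pooled and the animals share the difference between them, and the values of an animal share 1 normalization factor.

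Within a phenotype no relation of a marker to GPR84 passed the permutation test. In Ph1, 0 of 13 markers (0%) were called and 0 had an unadjusted p below 0.05. The highest rho was that of OLFM4, 0.52 (permutation p = 0.0589, adjusted p = 0.766, n = 14), with a Pearson's r of 0.45 (permutation p = 0.101, adjusted p = 0.539). Without the 2 animals farthest from the OLFM4 median, r was 0.47. Within the studies, rho for OLFM4 was 0.50 among the 8 CELTIC animals of Ph1 (exact permutation p = 0.216) and 0.83 among the 6 STARDUST animals (exact permutation p = 0.0583). ANKRD22 had a rho of 0.42 (permutation p = 0.139, adjusted p = 0.842) and an r of 0.48 (permutation p = 0.0810, adjusted p = 0.539) in Ph1, with an r of 0.58 without the 2 farthest animals and positive values of rho in both studies (0.33 and 0.60). For CD177 the studies differed in sign, with a rho of 0.81 in CELTIC (exact permutation p = 0.0218) and -0.14 in STARDUST (exact permutation p = 0.803), and the value over all of Ph1 was 0.31 (permutation p = 0.288, adjusted p = 0.842). The difference between the studies was not tested.

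For MMP8, rho with GPR84 in Ph1 was 0.22 (permutation p = 0.445, adjusted p = 0.842). TGFBI had a rho of -0.32 (permutation p = 0.259, adjusted p = 0.842) and HAL one of -0.15 (permutation p = 0.617, adjusted p = 0.842). HAL turned sign between the studies, with 0.55 in CELTIC and -0.60 in STARDUST (exact permutation p = 0.171 and 0.242).

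In Ph2, 0 of 13 markers (0%) were called and 0 had an unadjusted p below 0.05. HAL had the rho of largest size, -0.55 (exact permutation p = 0.133, adjusted p = 0.677, n = 9), with an r of -0.65 (exact permutation p = 0.0545, adjusted p = 0.643). Without the 2 animals farthest from the HAL median, r was -0.32. Leaving these out also narrows the range of HAL, so the drop does not show on which animals the relation rests. With each animal left out, rho ran from -0.71 to -0.36. ANKRD22, OLFM4 and CD177 had rho of 0.32, 0.27 and 0.38, MMP8 had a rho of 0 and TGFBI one of -0.33, with exact permutation p between 0.313 and 1 (adjusted p between 0.677 and 1). The studies held 4 and 5 animals of Ph2, too few for values of their own. The sign of rho in Ph1 and in Ph2 was shared by 8 of the 13 markers.

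**Figure D4:**
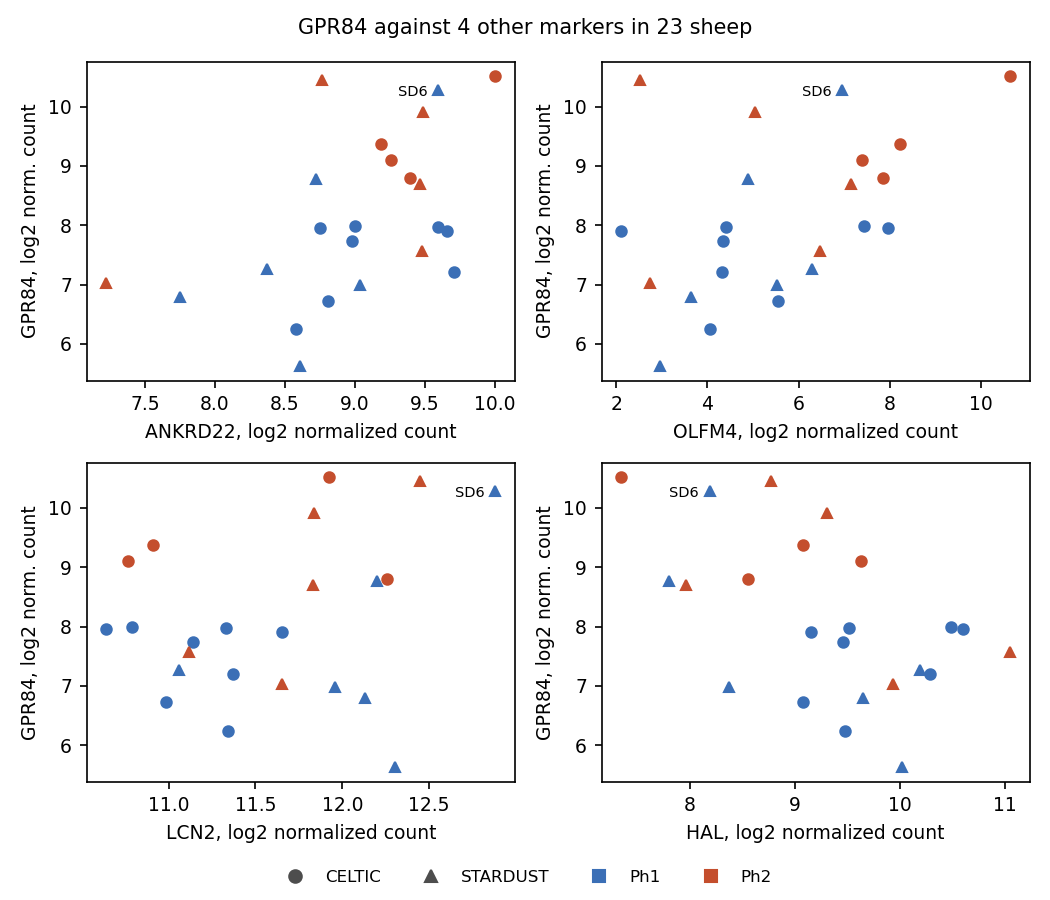
GPR84 (y axis) against ANKRD22, OLFM4, LCN2 and HAL (x axes), all as log2 normalized counts, in 23 sheep, with colour for phenotype and symbol for study. SD6, the Ph1 animal at 10.28, is labelled, and SD8 is the red triangle at a GPR84 of 10.45.

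When each animal was taken as its deviation from the mean of its phenotype and time point, a form chosen after the data were seen, the 23 animals gave the largest Pearson's r for HAL, -0.58 (permutation p = 0.0211, adjusted p = 0.274 over the 13 markers), and for LCN2, lipocalin 2, a specific granule protein that binds bacterial siderophores, 0.55 (permutation p = 0.0451, adjusted p = 0.293). No marker (0%) was called by r, and 2 had an unadjusted p below 0.05. By Spearman's rho 0% were called and 0 had such a p, with -0.41 for HAL (permutation p = 0.105) and 0.31 for LCN2 (permutation p = 0.224). Without the 2 animals farthest from the median deviation of each marker, r was -0.37 for HAL and 0.43 for LCN2. By study, r was -0.26 in CELTIC and -0.68 in STARDUST for HAL, and 0.38 and 0.58 for LCN2.

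The 3 animals with the highest GPR84 had different values of the other markers. G33 (Ph2, 6 h) also had the highest OLFM4 of all animals at 10.64, the highest ANKRD22 at 10.01, the highest CD177 at 5.13 and the lowest HAL at 7.34. SD8 (Ph2, 24 h) had OLFM4 at 2.52 and MMP8 at 3.52, both next to the lowest of the 23 animals, beside an LCN2 of 12.45, next to the highest. Both low values rest on few counts, and T007 and T011, at the places of the genes left out for low counts, had 10 and 5 in SD8. SD6 (Ph1, 6 h) had the highest LCN2 at 12.88 and the second highest RETN at 10.28, with OLFM4 at 6.95 in eighth place. High GPR84 thus occurred with high and with low OLFM4. SD9 (Ph2, 24 h) showed the opposite, with the highest MMP8 at 7.28, the highest RETN at 10.67 and the highest HAL at 11.05 of all animals beside a GPR84 of 7.57 in place 15.

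Measures of the assay were set beside GPR84, but RNA integrity, which the study lists for each lobe, was not. In that list SD6 and G33, the highest in GPR84 at 6 h, also had the highest integrity numbers of this time point in every lobe. At 24 h it went the other way for SD10, the lowest of all animals in GPR84. SD10 had the highest integrity numbers of that time point in the upper and lower lobes, though not in the middle lobe. A relation of RNA integrity to GPR84 was not tested. The total recovered count had a rho with GPR84 of 0.19 in Ph1 (permutation p = 0.512, n = 14) and 0.12 in Ph2 (exact permutation p = 0.776, n = 9). The mean of T036 to T039, the features that are not among the 16 places of markers, was 9.01 ± 0.16 in Ph1 and 9.13 ± 0.22 in Ph2, and its rho with GPR84 was 0.28 in Ph1 (permutation p = 0.331) and -0.08 in Ph2 (exact permutation p = 0.843). With each animal taken relative to this mean, the difference of GPR84 between the phenotypes was 1.40. The median of the 13 other markers had a rho with GPR84 of -0.49 in Ph1 (permutation p = 0.0759) and of 0.47 in Ph2 (exact permutation p = 0.213), with a Pearson's r of -0.44 (permutation p = 0.114) and 0.59 (exact permutation p = 0.0913). With each animal taken relative to the median of its 14 markers, the difference between the phenotypes was 1.43 over all time points. It was 1.19, 1.67 and 1.48 at 6, 12 and 24 h. Taken the same way, STARDUST minus CELTIC in Ph2 was -0.12. The part of the marker median in the GPR84 difference was not tested.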

How the data were processed

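The table deposited by the authors holds 20 features in 23 animals as log2 normalized counts. According to the methods, quality control was run in nSolver 4.0, a background from the negative controls was subtracted, counts were scaled to 3 housekeeping genes (geometric mean) in nCounter Advanced Analysis 2.0, and log2 was taken. Raw counts were not analysed here, and the recovered counts do not show whether a background had been subtracted (tolerance 0.0001), whose totals limit the precision. Features were named by their order in the probe table, where all 16 marker symbols matched RefSeq symbols. The identifiers run from T001 to T013 and then continue as T024 (ANKRD22), T025 (SULF2) and T026 (CD177), so that these names rest on the order of the rows and not on the numbers. T007 and T011, at the places of genes the study left out, and T036 to T039 keep their identifiers, since which housekeeping genes they are is not settled.

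The gene, the marker lists and the tests were chosen with earlier results of these data known. Besides GPR84, the 4 markers with the highest and the 2 with the lowest Spearman's rho over all animals were named, with any marker called within a phenotype. Time was tested by an exact permutation Kruskal-Wallis test, study by an exact Mann-Whitney U test, interactions in limma 3.58.1 (R 4.3.3), and relations by permutation (100000 resamples in Ph1 and over all animals, exact with 9 or fewer animals), with Benjamini-Hochberg adjustment over the 14 or 13 markers and a threshold of 0.05. Tests were first checked on simulated data. Alternatives were a pseudocount of 1, centring, medians, other tests, other families, each study alone and leaving out each animal. Python 3.11.15, numpy 2.4.6, scipy 1.17.1 and pandas 2.3.3 were used.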

Additional observations from a re-analysis of the deposited data

Results flagged for a closer look

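In Ph1 at 12 h, C21 had GPR84 at 6.25, apart from the other 3 animals of its group at 7.74 to 7.98. Its gap to the nearest animal was 0.863 of the group's range, above Dixon's 95% critical value of 0.829 for 4 animals. Of the 4 sets of animals examined for GPR84 (the 3 Ph1 groups and all 9 Ph2 animals), this was the sole one with such an animal, and chance flags about 1 in 20 for each set. The value rests on 68 recovered counts. SD6 in Ph1 at 6 h stood apart by 0.645 of its group's range, below the critical value of 0.710 for 5 animals.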

How the results depend on the processing

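No paired analysis was possible because each sheep belongs to a single group. GPR84 stayed higher in Ph2 under all alternatives run. Its difference over all time points was 1.11 to 1.98 under the alternatives and 1.33 to 1.77 with each animal left out. With each animal left out it was 1.21 (without G33) to 2.20 (without SD6) at 6 h, 1.26 to 1.89 at 12 h and 0.21 (without SD8) to 1.92 (without SD11) at 24 h. Medians gave 0.97 at 12 h and 0.59 at 24 h. Values relative to the mean of the features T036 to T039, added after the data were seen, gave 1.40, 1.58, 1.49 and 1.11 over all time points and at 6, 12 and 24 h. These features may include genes used for the scaling, so this alternative could change little.

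No test of time, interaction, study or relation had an adjusted p below 0.05 under the alternatives for which one was computed, or with any 1 animal left out. Relations within a study or without 2 animals had unadjusted p only, of which 3 lay below 0.05, for CD177 in Ph1 of CELTIC (exact permutation p = 0.0218) and, by Pearson's r without 2 animals, for ANKRD22 in Ph1 (permutation p = 0.0468) and TCN1 in Ph2 (exact permutation p = 0.0153). The difference between studies in Ph1 was 0.15 and ran from -0.38 without SD6 to 0.55 without SD10, and that in Ph2 was -0.72 and ran from -1.14 without SD8 to -0.29 without SD11. The time interaction had an adjusted p of 0.569 to 1.00 with each animal left out, and the study interaction ran from -1.30 to -0.34. Some rho values changed sign. Relative to the median of the 14 markers in each animal, those of ANKRD22 and CD177 in Ph2 were -0.47 and -0.57. With deviations from the mean of each time point, that of MMP8 in Ph1 was -0.029, and in Ph2 that of OLFM4 was -0.27 and that of TGFBI 0.27. With each animal left out, HAL in Ph1 ran from -0.29 to 0.060, OLFM4 in Ph2 from -0.048 to 0.62 and MMP8 in Ph2 from -0.26 to 0.29. The cause was not tested.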
